A study of Saccharomyces cerevisiae with 15 samples.

Results

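The genes described are the 33 subunits of the budding yeast proteasome: the 14 subunits of the 20S core particle (the PRE and PUP genes and SCL1) and the 19 of the 19S cap (the RPT and RPN genes and SEM1), with the transcription factor gene RPN4 left out. They were listed by systematic identifier, not by a cut on a measured value, though earlier results of these data were known. All 33 were found among the 7126 genes of the deposited expression table. The table holds mRNA levels in 15 RNA-seq libraries of Saccharomyces cerevisiae grown to mid-log phase in rich medium, in 5 groups of 3 biological replicates. Wild type HSF1 cells were measured at 30 °C and after 15 min at 37 °C. The other 3 groups stayed at 30 °C and carried an HSF1 allele in which a site bound by the chaperone Hsp70 was mutated: the amino-terminal site in hsf1-mN (here mN), the carboxyl-terminal site in hsf1-mC (mC), and both in hsf1-mNmC (mNmC). No source used here states how the alleles were introduced or whether each strain is a single isolate. HSF1 encodes the heat shock transcription factor, and the groups address how contact with Hsp70 restrains it.

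The proteasome degrades proteins that carry ubiquitin chains. Its 20S core is a barrel of 2 outer alpha rings and 2 inner beta rings, and the beta subunits PRE3, PUP1 and PRE2 hold the caspase-like, trypsin-like and chymotrypsin-like active sites. The 19S cap binds, unfolds and deubiquitinates substrates: its base holds the 6 RPT ATPases, the scaffolds RPN1 and RPN2 and the ubiquitin receptor RPN13, and its lid holds the deubiquitinase RPN11. RPN10, a second ubiquitin receptor, lies between them. In yeast most subunit genes share a promoter element, PACE, bound by Rpn4, a short-lived activator that the proteasome itself degrades, and RPN4 is a known target of Hsf1, Yap1 and Pdr1.

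Libraries stood apart from their groups in a way that touches every comparison with mNmC or with heat. By mean Spearman correlation over all genes, the library labelled mNmC replicate 3 was closer to the 37 °C libraries (0.972) than to the other mNmC libraries (0.921). The library labelled WT 37 °C replicate 3 was closer to the mNmC libraries (0.972) than to its own group (0.918). CTT1, the cytosolic catalase gene, read 980 FPKM (fragments normalised to gene length and library size) in mNmC 3, against 21.4 and 22.7 in the other 2. It read 20.4 in WT 37 °C 3, against 1003 and 1010 in the other 2. The pair goes against its labels as an exchange would, so each result is given with all 15 libraries as labelled and with the 13 that remain without these 2. The library mN replicate 1 also differed from mN 2 and 3: in it the 18 subunit genes with under 900 coding bases had a median log2 difference of -0.47 from the other mN libraries, and the 15 longer ones -0.05. Some counts are therefore also given with 12 libraries, without mN 1 as well, a choice made after seeing the data. Depth was 15462616 to 25409517 reads per library (median 20675390), read back from the steps of the FPKM values, and each subunit gene had between 690 and 13610 reads in every library.

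The upstream sequences of the subunit genes were read from the RefSeq genome R64 with its own annotation, from 250 bases before to 50 after the annotated start of each gene. The deposited table holds no coordinates. PACE, searched as GGTGGCAAA on both strands, was found in 27 of 33 subunit genes (81.8%), against 72 of the 6001 promoters of the same length in the genome (1.20%), which include these 27. Its shorter core GTGGCAAA, which every PACE match contains, was found in 30 of 33 (90.9%), against 144 of 6001 (2.40%). PRE5, PUP1 and RPN8 held the core only, and RPN13, RPN10 and SEM1 held neither in this window. Each of these last held GGTGGCGAA on either strand, which has a G in place of an A of PACE and was not searched for. The nearest PACE lay 76 to 175 bases before the start codon, with a median of 112. The heat shock element, searched as 3 alternating GAA and TTC units spaced by 2 bases, was found in 0 of the 33 and in 47 of 6001 promoters (0.783%), RPN4 among them. The stress response element AGGGG was found in 8 of the 33 (24.2%) and in 1297 of 6001 (21.6%). The following 5 promoters, each 300 bases and 5′ to 3′ on the coding strand, are those of the 2 subunit genes with the highest fold change at 37 °C (RPN5 and RPN13), the 2 with the lowest (RPT1 and PRE9), and RPN4. They are RPN5 (chrIV:190674-190973, plus strand), RPN13 (chrXII:965511-965810, minus strand), RPT1 (chrXI:173963-174262, plus strand), PRE9 (chrVII:761142-761441, plus strand) and RPN4 (chrIV:416659-416958, minus strand). Capitals mark PACE (GGTGGCAAA or its reverse complement), the stress response element (AGGGG or its reverse complement) and, in RPN4, the heat shock element.
RPN5: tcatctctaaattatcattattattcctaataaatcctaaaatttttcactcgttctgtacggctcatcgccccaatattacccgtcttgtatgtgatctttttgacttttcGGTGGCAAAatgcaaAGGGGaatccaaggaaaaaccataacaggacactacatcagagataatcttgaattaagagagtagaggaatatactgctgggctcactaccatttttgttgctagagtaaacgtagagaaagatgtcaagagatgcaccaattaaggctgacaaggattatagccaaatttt
RPN13: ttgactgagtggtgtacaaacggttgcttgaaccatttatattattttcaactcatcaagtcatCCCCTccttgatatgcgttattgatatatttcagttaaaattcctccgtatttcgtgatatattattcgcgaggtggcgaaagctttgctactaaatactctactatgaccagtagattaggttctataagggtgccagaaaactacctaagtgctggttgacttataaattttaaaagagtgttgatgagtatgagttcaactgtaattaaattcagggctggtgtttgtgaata
RPT1: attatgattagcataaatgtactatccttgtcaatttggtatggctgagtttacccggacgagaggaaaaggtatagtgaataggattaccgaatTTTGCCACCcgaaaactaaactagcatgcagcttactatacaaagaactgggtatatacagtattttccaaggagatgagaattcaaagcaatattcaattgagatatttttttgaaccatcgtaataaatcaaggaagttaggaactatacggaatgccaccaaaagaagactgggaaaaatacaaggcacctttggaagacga
PRE9: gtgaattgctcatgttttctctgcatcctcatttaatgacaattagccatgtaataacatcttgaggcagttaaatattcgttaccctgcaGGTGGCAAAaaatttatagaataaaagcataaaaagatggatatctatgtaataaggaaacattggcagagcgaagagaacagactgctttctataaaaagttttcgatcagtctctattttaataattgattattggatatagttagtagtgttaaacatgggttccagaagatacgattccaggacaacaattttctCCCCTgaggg
RPN4: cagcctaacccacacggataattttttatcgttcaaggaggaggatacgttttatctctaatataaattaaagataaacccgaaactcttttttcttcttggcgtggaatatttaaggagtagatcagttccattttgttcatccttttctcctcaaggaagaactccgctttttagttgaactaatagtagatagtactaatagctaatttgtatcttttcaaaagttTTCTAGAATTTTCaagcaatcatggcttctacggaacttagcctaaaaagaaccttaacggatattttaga
RPN5 and PRE9 both held a PACE and an AGGGG match, RPT1 held a PACE only, and RPN13 an AGGGG only. In PRE9 the AGGGG match lies after the start codon, within the coding sequence, and in RPN5 and RPN13 it lies before the start. RPN4 held the heat shock element and no PACE. A match is a stretch of letters, and binding was not measured here. Of the 33 genes listed as context below, 5 held a PACE: YAP1, ECM29, CDC48, UBA1 and UBI4.

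In wild type cells at 30 °C the core subunits were the more abundant mRNAs. The 14 core genes had a median of 384 FPKM, from 244 (PUP2, alpha 5) to 518 (PUP3, beta 3). The 19 cap genes had a median of 186 FPKM, from 108 (RPN5, a lid scaffold) to 266 (RPN10). FPKM is a level per length, so these values may be set beside each other. By ring or module the medians were 378 FPKM for the 7 alpha genes, 430 for the 7 beta genes, 196 for the 9 base genes and 150 for the 9 lid genes. The lowest core gene, PUP2, lay above 17 of the 19 cap genes: only RPN11 at 251 ± 9.83 (SD, n = 3) and RPN10 at 266 ± 1.29 exceeded it, and RPN11 lies within its own spread of PUP2 at 244 ± 6.54. The active-site genes PRE3 and PRE2 read 460 ± 19.7 and 430 ± 6.54, and PUP1 275 ± 3.35, the lowest of the beta ring. All 33 passed the filter on low values (1 FPKM or more in 3 or more libraries), and each lay above 87.1 FPKM, the 75th percentile of the 6399 genes that passed. The deposited values are shares of a library's reads, so the amount of mRNA per cell was not measured.

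**Figure D1:**
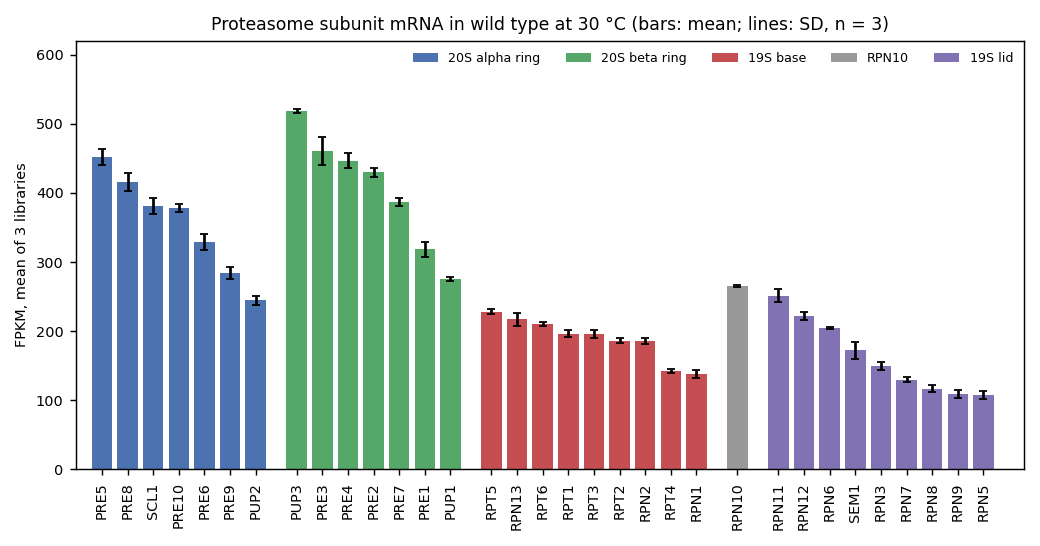
Mean FPKM (y axis) of the 33 proteasome subunit genes (x axis) in wild type cells at 30 °C, ordered by level within the alpha ring, beta ring, base, RPN10 and lid; bars are means of 3 libraries and lines are SD. The core genes run from 244 to 518 FPKM and the cap genes from 108 to 266.

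Fold changes below come from a fit by limma on log2(FPKM + 1) over all 6399 genes, with Benjamini-Hochberg adjustment over those genes and a call at an adjusted p under 0.05. They are log2 differences with a standard error (SE). Because the values are shares of reads, the median of all genes is given beside the median of the 33. Upper-quartile scaling, which sets the 75th percentile of each library equal, is given where it changes a count of the 33, of a module or of a list.

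With both Hsp70 sites mutated (mNmC against wild type at 30 °C), 30 of the 33 subunit genes had a positive fold change. The 3 that lie on chromosome VI had a negative one. This held as labelled and with 13 libraries. After upper-quartile scaling with 13 libraries, 19 of the 30 genes off chromosome VI were positive. As labelled, 3 of the 33 were called higher and 0 lower, against a background of 24.5% of all genes higher and 2.41% lower. With 13 libraries 15 were called higher and 3 lower (background 40.6% and 7.39%), so the share called higher was near that of all genes. With 12 libraries the counts were 23 higher and 3 lower (background 52.8% and 11.0%). The median over the 33 was 0.28 with 13 libraries, and that of all genes 0.25. After upper-quartile scaling that of all genes was 0.03, which left 2 subunit genes higher and 3 lower (background 20.3% and 16.9%): SEM1 and RPN5 higher, and PRE4, RPN11 and RPN12 lower. The median subunit thus moved about as much as the median gene, while these 5 were called under both scalings.

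PRE4 (YFR050C), the beta 7 subunit of the core, read 442, 438 and 460 FPKM in the wild type libraries at 30 °C and 219, 419 and 460 in those of mN. The mC libraries read 395, 460 and 452, the mNmC libraries 250, 276 and 558, and the 37 °C libraries 552, 532 and 255. RPN11 (YFR004W), the deubiquitinase of the lid, read 242, 250 and 262 in the wild type libraries at 30 °C and 274, 272 and 296 in those of mN. The mC libraries read 290, 307 and 304, the mNmC libraries 166, 181 and 284, and the 37 °C libraries 319, 307 and 149. RPN12 (YFR052W), a lid subunit, read 229, 217 and 220 in the wild type libraries at 30 °C and 219, 231 and 246 in those of mN. The mC libraries read 212, 237 and 237, the mNmC libraries 130, 136 and 242, and the 37 °C libraries 240, 226 and 135. All 3 genes were low in mNmC 1, mNmC 2 and the library labelled WT 37 °C 3. PRE4 was also low in mN 1, and otherwise no library of another group reached down to them. The mean of mNmC 1 and 2 was 0.589 of the wild type mean for PRE4, 0.692 for RPN11 and 0.598 for RPN12. For the 30 other subunit genes this ratio ran from 1.03 to 1.77, with a median of 1.22. The log2 fold changes with 13 libraries were -0.76 (SE 0.24, adjusted p = 0.022) for PRE4, -0.53 (SE 0.07, adjusted p = 0.00016) for RPN11 and -0.74 (SE 0.08, adjusted p = 2.6e-05) for RPN12. As labelled they were -0.40, -0.29 and -0.45, and the smallest adjusted p was 0.17. Over all 26 ways of fitting, PRE4 was called lower in 3, RPN11 in 3 and RPN12 in 4. The fits without both libraries that look exchanged (13 libraries, 13 with upper-quartile scaling, and 12) called all 3 genes lower. They share the same mNmC libraries, and every other fit kept at least 1 of the 2 that look exchanged.

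PRE4, RPN11 and RPN12 are the only subunit genes on chromosome VI, and the chromosome as a whole read low in the same libraries. Leaving the subunit genes out, the median log2 difference of chromosome VI genes from wild type at 30 °C was -0.66 in mNmC 1, -0.58 in mNmC 2 and -0.62 in WT 37 °C 3. It was 0.37 in mNmC 3, and 0.39 and 0.41 in WT 37 °C 1 and 2. In mNmC 1 and 2 and WT 37 °C 3, between 80.3% and 83.6% of chromosome VI genes lay below their wild type mean, against 21.3% to 24.7% of genes elsewhere. Chromosome III read high in those 3 libraries, with medians of 0.65, 0.70 and 0.66. The other 14 chromosomes had medians from 0.16 to 0.32 there. No subunit gene lies on chromosome III. In the fit with 13 libraries 78 of the 122 chromosome VI genes that are not subunit genes were called lower in mNmC than in wild type and 10 higher. The changes of PRE4, RPN11 and RPN12 therefore had the size of their chromosome's. Gene copy number was not measured, and its part in the result was not tested. The PACE elements of these 3 promoters are shown with 10 bases on each side, 5′ to 3′ on the coding strand, because these genes share the element with 24 other subunit genes (PRE4 and RPN12 hold it on the opposite strand). Capitals mark the PACE.
PRE4: tggtttagaaTTTGCCACCttaaatacgt
RPN11: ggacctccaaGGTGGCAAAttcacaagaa
RPN12: ctacacattaTTTGCCACCcattgaaatt

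**Figure D2:**
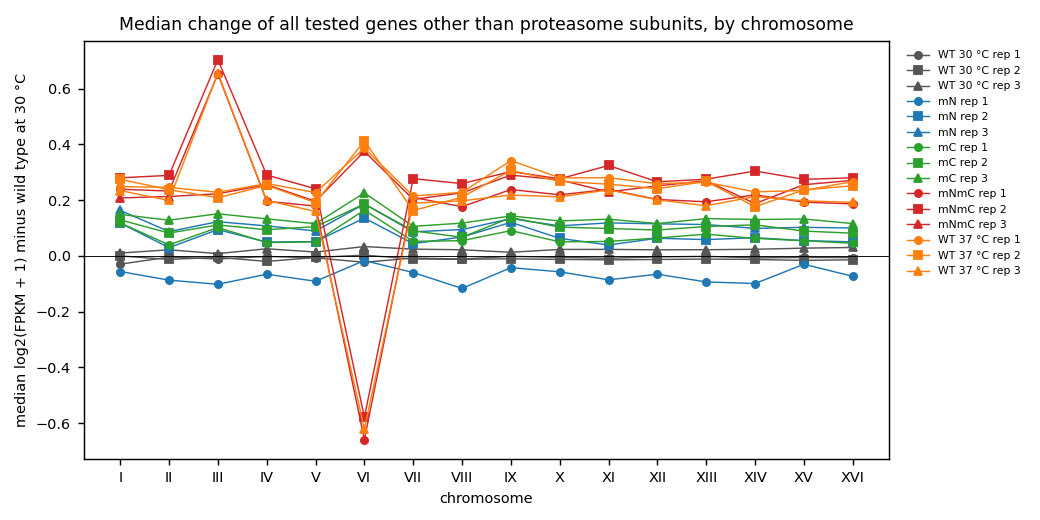
Median difference in log2(FPKM + 1) from wild type at 30 °C (y axis) of the tested genes of each chromosome (x axis), with the proteasome genes left out; each line is a library, coloured by its labelled group. mNmC 1, mNmC 2 and WT 37 °C 3 lie between -0.66 and -0.58 on chromosome VI and between 0.65 and 0.70 on chromosome III.

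**Figure D3:**
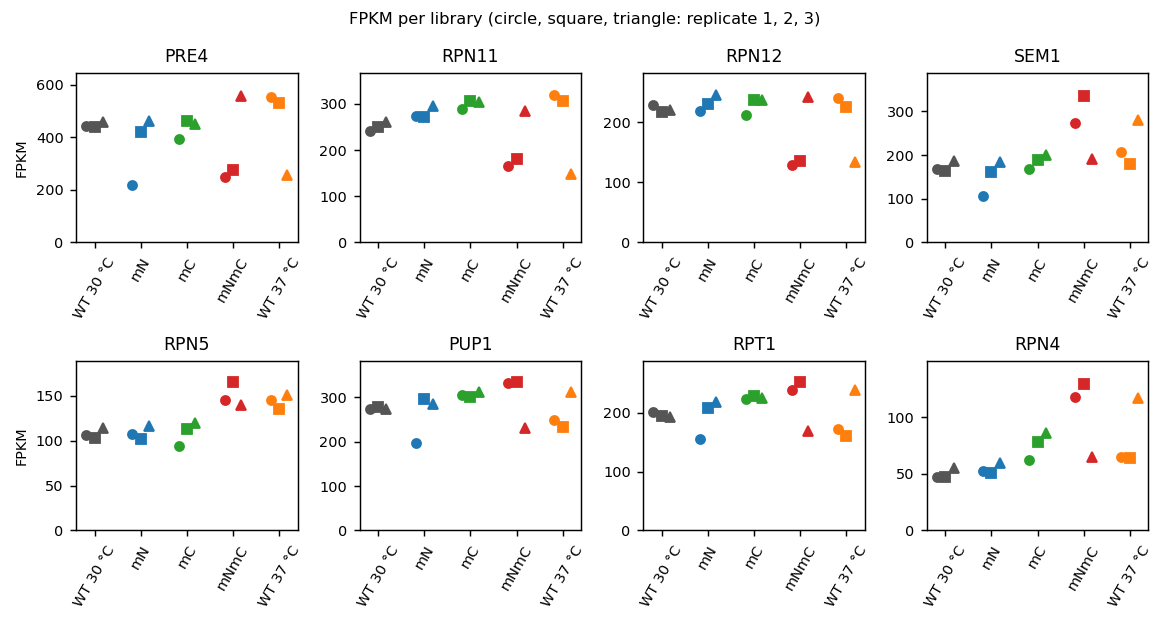
FPKM per library (y axis, from 0) of 7 proteasome genes and RPN4 by labelled group (x axis); circle, square and triangle are replicates 1, 2 and 3. PRE4, RPN11 and RPN12 were low in mNmC 1, mNmC 2 and WT 37 °C 3, and SEM1 and RPN4 were high in them.

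SEM1 (YDR363W-A), the smallest lid subunit, had the highest fold change of the 33. It read 168, 162 and 186 FPKM in the wild type libraries at 30 °C and 107, 162 and 184 in those of mN. The mC libraries read 167, 188 and 200, the mNmC libraries 274, 334 and 191, and the 37 °C libraries 207, 179 and 280. mNmC 1 and 2 lay above every wild type library at 30 °C, and the library labelled mNmC 3 lay just above the highest of them. The log2 fold change in mNmC was 0.81 (SE 0.19, adjusted p = 0.005) with 13 libraries, and 0.59 (adjusted p = 0.08) as labelled. RPN5 (YDL147W), the lid scaffold, read 106, 103 and 114 in wild type and 145, 165 and 140 in mNmC, with no overlap. Its fold change was 0.51 (SE 0.11, adjusted p = 0.0026) with 13 libraries, and 0.47 (adjusted p = 0.0088) as labelled. PRE1 (YER012W), the beta 4 subunit, read 325, 305 and 325 in wild type and 443, 439 and 351 in mNmC. Its fold change was 0.47 (SE 0.17, adjusted p = 0.036) with 13 libraries, and 0.36 (adjusted p = 0.14) as labelled.

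The 3 members called as labelled were RPN5, RPN13 and RPN7. RPN13 (YLR421C), the ubiquitin receptor of the base, read 217, 208 and 226 in wild type and 283, 320 and 272 in mNmC, and RPN7, a lid subunit, 132, 126 and 132 against 169, 170 and 150. Neither pair of groups overlapped. Their fold changes as labelled were 0.42 (SE 0.11, adjusted p = 0.014) and 0.32 (SE 0.10, adjusted p = 0.035). By module, with 13 libraries 2 of 7 alpha, 2 of 7 beta, 6 of 9 base and 5 of 9 lid genes were called higher, against 40.6% of all genes. With 12 libraries these counts were 5, 5, 6 and 6 (52.8% of all genes), and with upper-quartile scaling 0, 0, 0 and 2 (20.3%). Those of the alpha and beta rings thus rose without mN 1, as did the share of all genes, and those of base and lid hardly did. All depended on the scaling. The base genes called with 13 libraries were RPN13 and the ATPases RPT1, RPT2, RPT3, RPT4 and RPT5.

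Of the active-site genes none was called with 13 libraries. PRE3 read 443, 456 and 482 in wild type and 547, 505 and 500 in mNmC, a fold change of 0.19 (adjusted p = 0.49). PUP1 read 273, 279 and 273 against 333, 334 and 231 (0.28, adjusted p = 0.12), with mNmC 3 below every wild type library and the other 2 above. PRE2 read 422, 433 and 434 against 457, 483 and 417 (0.13, adjusted p = 0.37). With 12 libraries PUP1 and PRE2 were called higher, with adjusted p of 0.00029 and 0.042, and PRE3 was not (0.067). The fold changes of the uncalled members other than these ran from 0.04 (PRE6, alpha 4) to 0.37 (RPN10) with 13 libraries. RPN10 read 266, 264 and 267 in wild type, 337 and 351 in mNmC 1 and 2 and 268 in mNmC 3, and its adjusted p was 0.11 with 13 libraries and 6.2e-05 with 12, where the low value in mN 1 (177) no longer enters the spread.

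**Figure D4:**
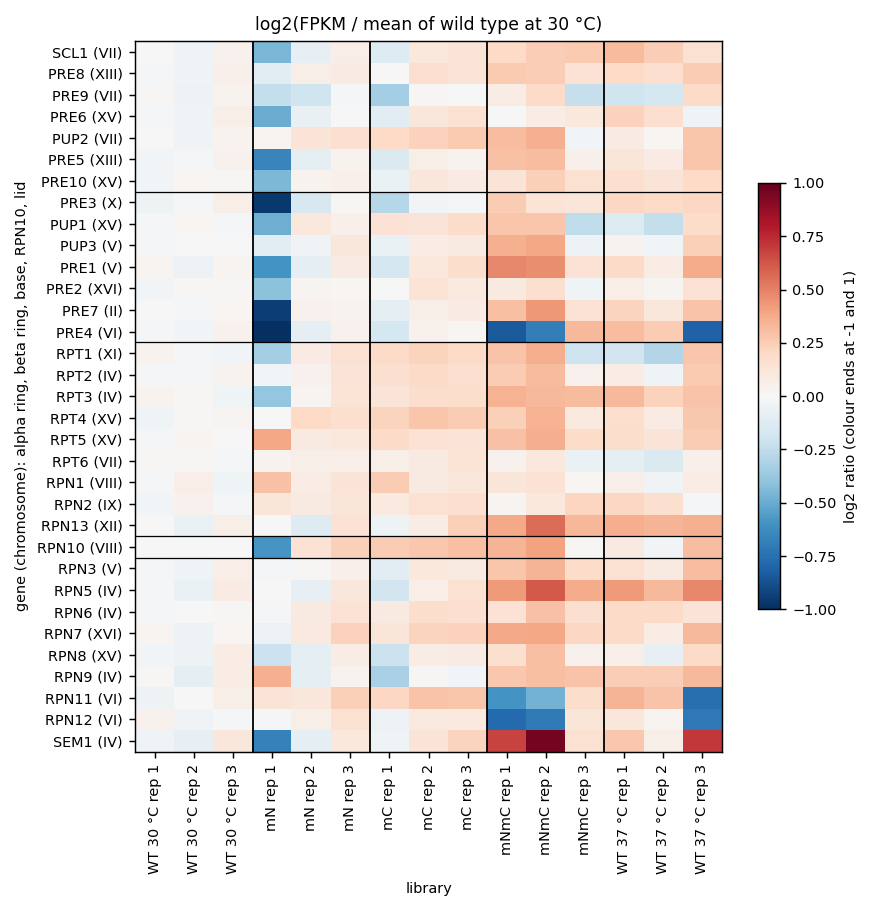
log2 ratio of FPKM to the wild type mean at 30 °C (colour, ends at -1 and 1) for the 33 genes (rows, with chromosome) in the 15 libraries (columns, by labelled group). PRE4, RPN11 and RPN12 are blue in mNmC 1, mNmC 2 and WT 37 °C 3, and many core genes are blue in mN 1.

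RPN4, the activator of these genes, rose in mNmC. It read 46.9, 47.3 and 54.9 FPKM in the wild type libraries at 30 °C and 52.5, 51.2 and 59.8 in those of mN. The mC libraries read 62.0, 78.2 and 86.5, the mNmC libraries 118, 130 and 65.4, and the 37 °C libraries 64.8, 63.7 and 118. The library labelled WT 37 °C 3 was at the level of mNmC 1 and 2, and mNmC 3 was at the level of WT 37 °C 1 and 2. The log2 fold change in mNmC was 1.00 (SE 0.27, adjusted p = 0.017) as labelled and 1.30 (SE 0.13, adjusted p = 2e-05) with 13 libraries, when mNmC 1 and 2 had 2.49 times the wild type mean. The median fold change of the 33 subunits was 0.28 in the same fit. The 24 subunit genes off chromosome VI with an exact PACE match had a median of 0.28, and the 6 without one 0.34. Of these 6, PRE5, PUP1 and RPN8 held the PACE core, and RPN13, RPN10 and SEM1 the near match GGTGGCGAA. The 6 are therefore not a group free of PACE-like sequence, and the medians do not compare genes with and without such a site.

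Wild type cells after 15 min at 37 °C were compared with those at 30 °C. As labelled, 2 of the 33 were called higher, RPN5 and RPN13, and 0 lower (background 32.1% higher and 5.97% lower). With 13 libraries 5 were called higher and 0 lower (background 47.0% and 18.9%), but with upper-quartile scaling on the same 13 libraries 0 were higher and 10 lower (background 34.2% and 30.0%). The median over the 33 was 0.13 with 13 libraries against 0.29 for all genes, and -0.12 against 0.05 after upper-quartile scaling. With 12 libraries 15 were higher and 3 lower (background 53.1% and 22.1%). The direction of the subunits as a group at 37 °C thus depended on the scaling, and in both fits they lay below the median of all genes.

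RPN5 read 145, 135 and 151 FPKM at 37 °C, all above the 106, 103 and 114 of wild type at 30 °C, and its fold change was 0.41 (SE 0.11, adjusted p = 0.014) as labelled and 0.37 (adjusted p = 0.0092) with 13 libraries. RPN13 read 279, 275 and 278, again with no overlap, and its fold changes were 0.35 (SE 0.11, adjusted p = 0.025) and 0.35 (adjusted p = 0.01). Neither was called after upper-quartile scaling (0.12 and 0.10). RPN11 rose by 0.31 (SE 0.07, adjusted p = 0.0021) with 13 libraries, but as labelled its fold change was -0.04 (adjusted p = 0.91), with WT 37 °C 3 at 149 FPKM, and after upper-quartile scaling it was 0.06 (adjusted p = 0.49). The other 2 called with 13 libraries were RPN2, the base scaffold (0.18, adjusted p = 0.018), and RPN6, a lid scaffold (0.19, adjusted p = 0.035). Of the other chromosome VI members, PRE4 had a fold change of 0.28 (adjusted p = 0.32) and RPN12 of 0.07 (adjusted p = 0.42). After upper-quartile scaling PRE4 was at 0.03 and not called, while RPN12 was called lower.

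The lowest fold changes at 37 °C were those of RPT1 (YKL145W), an ATPase of the base, PRE9 (YGR135W), the alpha 3 subunit, and PUP1 (YOR157C). RPT1 read 202, 195 and 193 FPKM at 30 °C and 173, 160 and 238 at 37 °C, and mNmC 3 read 170. PRE9 read 287, 275 and 290 against 247, 251 and 324, and PUP1 273, 279 and 273 against 250, 233 and 312. In all 3 genes WT 37 °C 1 and 2 lay below the 30 °C libraries and the library labelled WT 37 °C 3 above them. Their fold changes with 13 libraries were -0.24 (SE 0.12, adjusted p = 0.1), -0.19 (SE 0.11, adjusted p = 0.14) and -0.19 (SE 0.14, adjusted p = 0.25). After upper-quartile scaling all 3 were called lower: -0.49 (adjusted p = 0.00012), -0.44 (adjusted p = 0.0014) and -0.44 (adjusted p = 0.0014). Of the other active-site genes PRE3 read 532, 525 and 532 at 37 °C (0.20, adjusted p = 0.44) and PRE2 449, 439 and 474 (0.05, adjusted p = 0.74) with 13 libraries, and PRE2 was called lower after upper-quartile scaling (-0.20, adjusted p = 0.028). RPN4 had a fold change of 0.37 (SE 0.13, adjusted p = 0.025) with 13 libraries, of 0.65 (adjusted p = 0.067) as labelled and of 0.12 (adjusted p = 0.38) after upper-quartile scaling.

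The double mutant at 30 °C and the wild type at 37 °C were then compared directly. As labelled 0 of the 33 and 0 of the 6399 genes were called (background 0% higher and 0% lower) by limma, with 65 genes at an unadjusted p under 0.05. With 13 libraries 9 subunit genes were higher in mNmC and 3 lower (background 28.0% and 28.8%). With upper-quartile scaling the counts were 13 and 3 (background 30.5% and 28.6%), and with 12 libraries 16 and 3 (background 34.2% and 33.6%). The 9 were SEM1, RPT1, PUP1, PUP3, PRE9, PUP2, RPT2, RPN7 and RPT6, and the 3 were again PRE4, RPN11 and RPN12. The median over the 33 was 0.17 with 13 libraries, and that of all genes was 0.00 to 2 decimals.

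SEM1 was higher in mNmC 1 and 2 (274 and 334 FPKM) than in WT 37 °C 1 and 2 (207 and 179), a fold change of 0.65 (SE 0.21, adjusted p = 0.02). RPT1 read 239 and 252 against 173 and 160, a fold change of 0.56 (SE 0.13, adjusted p = 0.0035), and PUP1 333 and 334 against 250 and 233, a fold change of 0.46 (SE 0.15, adjusted p = 0.022). PRE4, RPN11 and RPN12 had fold changes of -1.04 (SE 0.26, adjusted p = 0.0052), -0.84 (SE 0.08, adjusted p = 3.1e-06) and -0.81 (SE 0.08, adjusted p = 7.5e-06). Their mNmC means were 0.485, 0.556 and 0.569 of the 37 °C means, while 97 of the 122 other chromosome VI genes were called lower. PRE3 and PRE2 were not called (-0.01 and 0.08, adjusted p of 0.98 and 0.6). RPN4 was higher in mNmC by 0.93 (SE 0.14, adjusted p = 0.00016). As labelled, that fold change was 0.34 (adjusted p = 0.75). The mNmC groups of both comparisons are the same libraries, so this comparison and that with wild type at 30 °C are not independent.

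**Figure D5:**
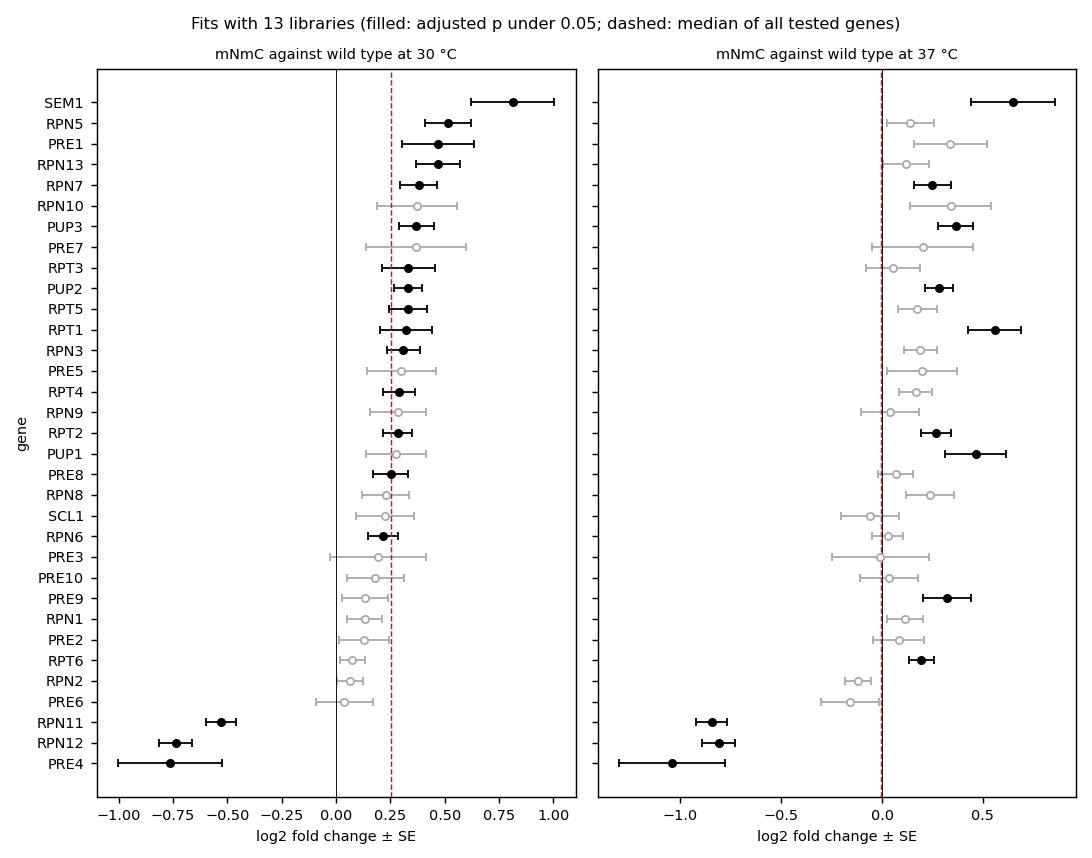
log2 fold change ± SE (x axis) of the 33 genes (y axis) in mNmC against wild type at 30 °C (left) and at 37 °C (right), from the fits with 13 libraries; filled points have an adjusted p under 0.05, and the dashed line is the median of all 6399 genes. SEM1 is highest in both panels, and PRE4, RPN11 and RPN12 are lowest.

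Mutating the amino-terminal site alone (mN) gave no call among the 33, as labelled (background 0.422% higher and 0.0313% lower) or with 13 libraries (background 12.8% and 5.36%). In the fit as labelled 745 of all genes had an unadjusted p under 0.05. With 12 libraries, without mN 1, 4 subunit genes were higher and 0 lower (background 22.6% and 6.94%): PUP2 (0.15), RPT4 (0.18), RPN10 (0.19) and RPN11 (0.17). The fold changes with 13 libraries ran from -0.37 (PRE3) to 0.19 (RPT5, an ATPase), and 12 of the 14 core genes were negative. The library mN 1 set these values. PRE3 read 235, 412 and 467 in mN, PRE7, the beta 6 subunit, 202, 398 and 397, and PRE4 219, 419 and 460, each with mN 1 far below the other 2. RPT5 and RPN1 were high in it, at 299 and 169 FPKM against 243 and 246 for RPT5 and 146 and 150 for RPN1. Without mN 1 the fold changes of PRE3, PRE7 and PRE4 were -0.07, 0.04 and -0.02. PUP1 and PRE2 moved likewise, from -0.11 and -0.12 to 0.08 and 0.02. RPN12 and RPN4 had fold changes of 0.06 and 0.13 with 13 libraries and were not called. Across the 33 genes the log2 difference of mN 1 from the other mN libraries had a Spearman correlation of 0.53 with coding length. Across 5818 genes it was 0.36. In mC 1, set against the other mC libraries, these were 0.49 and 0.23, so the relation was not particular to mN 1. The shift was smaller in mC 1, with medians of -0.18 for the 18 subunit genes under 900 bases and -0.06 for the 15 longer ones. The fit with 12 libraries kept mC 1. Genes of a library share its depth and its quality, and the part of RNA quality in this was not tested.

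Mutating the carboxyl-terminal site alone (mC) also gave no call among the 33 as labelled (background 0.172% higher and 0.0156% lower), when 680 of all genes had an unadjusted p under 0.05. With 13 libraries 3 were higher and 0 lower (background 12.3% and 2.45%), and with upper-quartile scaling 0 and 0 (background 6.47% and 4.92%). With 12 libraries 13 were higher and 0 lower (background 26.5% and 6.84%), though no mC library was left out: the pooled spread was smaller. The 3 were RPN11 (0.25, adjusted p = 0.023), RPT4 (0.25, adjusted p = 0.029) and PUP2 (0.23, adjusted p = 0.025). RPT4, an ATPase, read 139, 144 and 145 FPKM in wild type and 166, 173 and 170 in mC, and PUP2 read 244, 238 and 251 against 280, 287 and 293. Neither overlapped. RPN10 had the highest fold change, 0.27 (adjusted p = 0.29), with 318, 321 and 327 FPKM in mC above the 266, 264 and 267 of wild type, and it was called with 12 libraries (adjusted p = 0.001). The lowest were PRE3 (-0.11), RPN9, a lid subunit (-0.11), and PRE9 (-0.11), none of them called, and in each the low value was that of mC 1. PUP1, PRE2, PRE4 and RPN12 had fold changes of 0.15, 0.08, -0.04 and 0.04, not called. RPN4 had a fold change of 0.59 (SE 0.12, adjusted p = 0.0087) with 13 libraries and an adjusted p of 0.46 as labelled. Its 3 mC values all lay above those of wild type.

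The double mutant was also compared with each single mutant. Compared with mN, 6 of the 33 were higher and 0 lower as labelled (background 20.1% and 2.67%), and 18 and 2 with 13 libraries (background 39.6% and 10.6%). With upper-quartile scaling 3 were higher and 5 lower (background 21.0% and 22.1%). The highest were SEM1 (1.03, adjusted p = 0.0014), PRE1 (0.67, adjusted p = 0.007) and PRE7 (0.65, adjusted p = 0.035), each of which was low in mN 1, and without it they were 0.80, 0.47 and 0.33. RPN12 and RPN11 were lowest, at -0.80 (adjusted p = 1.7e-05) and -0.69 (adjusted p = 3.1e-05). PRE4 was not called with 13 libraries (-0.41, adjusted p = 0.17). It was called lower after upper-quartile scaling of these (-0.65), and when mN 1 was left out (-0.74, adjusted p = 2.7e-05). PUP1 was called (0.39, adjusted p = 0.038), and PRE3 (0.56, adjusted p = 0.055) and PRE2 (0.25, adjusted p = 0.092) were not. RPN4 was higher by 1.17 (adjusted p = 5e-05).

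Compared with mC, 2 of the 33 were higher in mNmC and 0 lower as labelled (background 12.4% and 2.27%), and 6 and 3 with 13 libraries (background 27.6% and 9.52%). With upper-quartile scaling the counts were 2 and 3 (background 17.9% and 17.7%). SEM1 and RPN5 were highest among those called, at 0.71 (adjusted p = 0.013) and 0.50 (adjusted p = 0.0039), and PRE1 had 0.44 (adjusted p = 0.059). RPN11, RPN12 and PRE4 were lowest, at -0.78 (adjusted p = 1.3e-05), -0.78 (adjusted p = 2.3e-05) and -0.72 (adjusted p = 0.034). PRE3, PUP1 and PRE2 were not called (0.30, 0.12 and 0.05). RPN4 was higher by 0.72 (adjusted p = 0.0015).

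Whether the effect of both mutations differed from the sum of the single effects was tested as an interaction on the log2 scale. As labelled 0 of the 33 were called (background 3.50% higher and 1.19% lower), with 1346 of all genes at an unadjusted p under 0.05. With 13 libraries 4 were higher and 2 lower (background 22.1% and 12.8%), and with upper-quartile scaling 2 and 4 (background 17.2% and 19.8%). SEM1 had the highest interaction (0.93, adjusted p = 0.016), followed by PRE3 (0.67, adjusted p = 0.1) and PRE7 (0.64, adjusted p = 0.13). Both were low in mN 1, and with 12 libraries PRE3 had 0.37 (adjusted p = 0.026) and PRE7 0.32 (adjusted p = 0.014), below PRE1 at 0.44 (adjusted p = 0.017) and SEM1 at 0.70 (adjusted p = 0.0032). RPN11 and RPN12, on chromosome VI, were lowest (-0.94 and -0.84, adjusted p of 4.8e-05 and 0.00016). Of the 122 other genes of that chromosome 83 were called lower. RPN4 had an interaction of 0.59 (adjusted p = 0.022). PRE4 (-0.37), PUP1 (0.23) and PRE2 (0.17) were not called with 13 libraries, and PRE4 was called lower with 12 (-0.70, adjusted p = 0.00032).

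Other genes of the pathway were read from lists of regulators, assembly chaperones, associated factors and Cdc48 and ubiquitin factors, with 13 libraries unless said. In mNmC against wild type the share of all genes called was 40.6% higher and 7.39% lower, and after upper-quartile scaling 20.3% and 16.9%. Of 5 regulators 3 were higher and 2 lower, and 2 and 2 after that scaling. RPN4 and YAP1, an oxidative stress factor (0.60, adjusted p = 0.00019), were highest, and HSF1 itself (-1.46, adjusted p = 1.8e-06) and PDR3, a drug resistance factor on chromosome II (-0.33, adjusted p = 0.0065), were lowest. HSF1 read 154, 152 and 158 FPKM in the wild type libraries at 30 °C, and the mNmC libraries read 52.1, 59.4 and 150. The mN libraries read 86.1, 110 and 106, the mC libraries 261, 230 and 247, and the 37 °C libraries 159, 148 and 67.6. The single mutants thus also differed from wild type in HSF1 mRNA, lower in mN and higher in mC. The part of this level in the other results was not tested. Of 10 assembly chaperones 3 were higher and 0 lower (2 and 0 after scaling): NAS6 (0.55), NAS2 (0.55) and POC1 (0.33). TMA17, an assembly factor, had the highest fold change (0.82) without being called (adjusted p = 0.07), and RPN14 and HSM3 the lowest (0.09 and 0.10). Of 10 associated factors 4 were higher and 2 lower (2 and 2 after scaling). The 2 lower were UBP6, the proteasomal deubiquitinase (-0.84, adjusted p = 1.3e-05), and BLM10, a core activator (-0.62, adjusted p = 1.2e-05), both on chromosome VI. The highest was FUB1, a core-binding protein on chromosome III (0.87, adjusted p = 0.00035), then STS1, which helps to localize the proteasome (0.65, adjusted p = 0.039). Of 8 Cdc48 and ubiquitin factors 4 were higher and 0 lower (2 and 1 after scaling, when their median went from 0.16 to -0.07), with UBI4, polyubiquitin (1.32, adjusted p = 1.6e-06), and UFD1, a Cdc48 cofactor (0.47, adjusted p = 0.0024), highest, and UFD2 (-0.08) and CDC48 (0.05) lowest.

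At 37 °C the share of all genes called was 47.0% higher and 18.9% lower, and after upper-quartile scaling 34.2% and 30.0%. Of 10 assembly chaperones 6 were called higher and 1 lower, and 4 and 1 after that scaling, near those shares. TMA17 read 79.3, 89.2 and 80.8 FPKM at 30 °C and 320, 324 and 143 at 37 °C, a fold change of 1.94 (SE 0.34, adjusted p = 0.0004), and mNmC 3 read 292. NAS2, a chaperone of the base, rose by 1.27 (SE 0.15, adjusted p = 1.3e-05). POC4, a chaperone of the alpha ring, fell by 0.68 on the log2 scale (adjusted p = 0.011), and IRC25, its partner, was at 0.13 (adjusted p = 0.68). Of 10 associated factors 5 were higher and 0 lower (2 and 1 after scaling), with SPG5 (1.05) and HUL5, a ubiquitin ligase (0.84), highest, and RAD23 (-0.12) and BLM10 (0.08) lowest. Of 8 Cdc48 and ubiquitin factors 6 were higher and 1 lower (3 and 1 after scaling), with UBI4 (2.02, adjusted p = 8.2e-09) and UFD1 (0.60) highest, and UBA1, the ubiquitin-activating enzyme (-0.21, adjusted p = 0.008), lowest. CDC48 was at 0.10 (adjusted p = 0.15). Of 5 regulators 4 were higher and 0 lower with 13 libraries, and 0 and 1 after upper-quartile scaling. Set against mNmC, TMA17 and NAS2 were higher at 37 °C (mNmC minus 37 °C, -1.12 and -0.73, adjusted p of 0.024 and 0.0024), and UBI4 too (-0.70, adjusted p = 0.00013), while RPN4 was lower.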

How the data were processed

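Polyadenylated RNA from 15 yeast cultures was sequenced, per the labels' protocols. The submitters' processing notes name TopHat2 2.0.12, Bowtie2 2.2.3 and HTSeq 0.6.1, with no build, and nothing states strand handling, so reads of overlapping genes cannot be told apart. The deposited values are FPKM per gene, computed by the authors. From them log2(FPKM + 1) was fitted with limma 3.58.1 in R 4.3.3 (1 mean per group, empirical Bayes with trend) on 6399 genes (those reaching 1 FPKM in 3 or more libraries), with Benjamini-Hochberg adjustment and a call at an adjusted p under 0.05. The same script was tested on simulated data. The simulated libraries had independent noise and no exchanged pair, so that test does not cover the main fits as labelled. A fold change on this scale understates the change of low genes. Main fits used all 15 libraries as labelled. FPKM steps were whole reads, to within 0.01 read, for 98.6% to 98.9% of the single-exon genes checked in each library. Of the 7126 identifiers 6048 matched RefSeq R64, the genome used for chromosomes, lengths and promoters. Members and gene lists were chosen with earlier results of these data known. Genes named in full were, per comparison, the 3 highest and 3 lowest fold changes with 13 libraries, PRE3, PUP1 and PRE2, members against the majority, and RPN4; context lists were given by counts and extremes. Alternatives changed the libraries, scaling, filter, pseudocount, trend, blocking and samples fitted. In the labels the replicate numbers carry no stated pairing, and the p-values measure the spread between these replicates.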

Additional observations from a re-analysis of the deposited data

Results flagged for a closer look

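The interaction of both sites, that is the effect of 1 mutation with and without the other, differed from 0 by limma's adjusted p with 13 libraries for 6 subunit genes and RPN4, and for none of them as labelled. The 6 were 4 higher and 2 lower of the 33, while 22.1% of all genes were called higher and 12.8% lower in that fit. The subunit genes were thus not called more often than genes in general. The log2 values were 0.63 for PRE1, 0.34 for PUP3, 0.50 for RPN5 and 0.93 for SEM1, each above the sum of the single effects, and 0.59 for RPN4. RPN11 had -0.94 and RPN12 -0.84, both on chromosome VI, whose other genes had a median interaction of -0.81 in the same fit. After upper-quartile scaling of the same libraries PRE1, SEM1, RPN11 and RPN12 were still called, and PUP3, RPN5 and RPN4 were not (background 17.2% higher and 19.8% lower).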

How the results depend on the processing

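Each count of called subunit genes was recomputed under 25 other settings, 24 of them planned. Without mNmC 3 and WT 37 °C 3 (13 libraries) the counts were 0 for mN, 3 for mC, 18 for mNmC against wild type, 5 for 37 °C, 12 for mNmC against 37 °C, 20 against mN, 9 against mC and 6 for the interaction. With 12 libraries, chosen after seeing the data, they were 4, 13, 26, 18, 19, 23, 19 and 14, in that order. For the last 3 of these, the shares of all genes called were also large. They were 39.3% higher and 13.7% lower against mN, 41% and 14.4% against mC, and 26.3% and 19% for the interaction. The other shares for 13 and 12 libraries are given with the results above. Upper-quartile scaling of all libraries gave 0 for mNmC against wild type, 1 for 37 °C, 1 against mN and 0 against mC. Of all genes this scaling called 9.5% higher and 6.16% lower, 16.3% and 13.5%, 8.24% and 7.91%, and 6.33% and 4.8%, in that order. With 13 libraries as well it gave 5 for mNmC against wild type, 10 for 37 °C, 16 against 37 °C, 5 against mC and 6 for the interaction. Fitting only the groups compared gave 12 for mC, and 0 for mNmC against mN and against mC. Of all genes 23.1% were then called higher and 6.09% lower for mC. These shares were 2.27% and 0.25% for mNmC against mN, and 4.64% and 0.688% against mC. Having no low-value filter, or no trend, gave 5 for mNmC against wild type. Of all genes 23.1% were called higher and 2.3% lower without the filter, and 24% and 2.53% without the trend. No pair of groups had same-numbered libraries that all deviated together, so the numbers were taken not to pair the samples. Between mNmC and 37 °C the 3 correlations were -0.81, -0.82 and -0.95. A replicate block gave 3 calls against mN, 1 against mC, and 2 each for mNmC against wild type and for 37 °C. The shares of all genes called higher with that block were 16%, 9.63%, 19.5% and 26.1%, in that order.

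Leaving out 1 library at a time gave 1 to 12 calls for mNmC against wild type (12 without mN 1, 10 without mNmC 3). Of all genes 30.1% were called higher and 2.98% lower without mN 1, and 22.3% and 2.66% without mNmC 3. Such fits gave 0 to 4 for 37 °C, 0 to 9 against mN, 0 to 3 against mC and 0 to 0 for mN, mC and the interaction. In them at most 0.875% of all genes were called higher for mN, 1.02% for mC and 5.91% for the interaction. With 13 libraries these shares were 12.8%, 12.3% and 22.1%. For mNmC against 37 °C the range was also 0 to 0, but none of the 6399 genes was called in any of these fits. Each of the fits without 1 library kept at least 1 of the 2 that look exchanged. They therefore cannot show how stable the counts that stayed at 0 are. Values called in 1 of the 2 fits turned direction for RPN11 at 37 °C (0.31 with 13 and 12 libraries), PRE4 at 37 °C (0.28 with 12), PRE2 at 37 °C (-0.20 with upper-quartile scaling and 13) and PUP1 in mNmC against mC (0.12 with 12). Of the other values of single named genes, 1772 kept their direction and side of the threshold, 116 came to pass it and 43 no longer did. A further 64, called in neither fit, changed sign (lowest adjusted p 0.157). Among them with 13 libraries were PRE4 at 37 °C (-0.08 to 0.28) and RPN12 at 37 °C (-0.19 to 0.07), and with 12 libraries PUP1 and PRE2 in mN (-0.11 and -0.12 to 0.08 and 0.02). The cause of these differences was not tested. Reads limited none of the members, which had at least 690 reads in every library. With 3 libraries a group, and 2 in mNmC and at 37 °C once the library that looks exchanged is left out of each, the replicates set the precision.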

Other observations

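Summed over the 30 subunit genes off chromosome VI, the level was 7773, 7738 and 7976 FPKM in wild type at 30 °C, 9342 and 9735 in mNmC 1 and 2, and 8632 and 8262 in WT 37 °C 1 and 2. Summed over PRE4, RPN11 and RPN12 it was 913, 905 and 941 in wild type, 546 and 593 in mNmC 1 and 2, and 1111 and 1065 in WT 37 °C 1 and 2. The ratio between subunits of 1 complex therefore differed between these libraries, at the level of mRNA. Protein was not measured. In the library labelled WT 37 °C 3 the sums were 9223 and 538, and in that labelled mNmC 3 they were 8312 and 1084.

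In mN 1 the 14 core genes had a median of 245 FPKM, against 392 and 398 in mN 2 and 3, and the 19 cap genes 169 against 197 and 204. The core genes have 597 to 867 coding bases. Of the 4 cap genes under 900 bases, SEM1 (270 bases) read 107 FPKM in mN 1 against 162 and 184 in mN 2 and 3, and RPN10 (807 bases) 177 against 294 and 313. RPN13 (471 bases) read 217 against 198 and 240, and RPN12 (825 bases) 219 against 231 and 246, so short genes were not all low in this library.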
